A study of Mus musculus with 12 samples.

Results

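A set of 9 genes that Paneth cells secrete or use at the crypt base was followed through the RNA-seq libraries of the ageing mouse small intestine: the alpha-defensins Defa17, Defa22, Defa24 and Defa30, the lysozymes Lyz1 and Lyz2, the ribonuclease Ang4, the lectin Itln1 and the protease Mmp7. They were picked by name for their role, with earlier results of these data known. All 9 were found among the 34245 gene rows of the count table, each on 1 row. The libraries came from male C57BL/6 mice carrying Lgr5-EGFP-IRES-creERT2, a knock-in that puts a green fluorescent protein under the control of the stem cell gene Lgr5, at about 8 months (young) or about 27 months (aged). Intestinal stem cells (ISC) were the GFP-high, DAPI-negative cells of crypt suspensions, sorted on GFP without antibodies against other cell types, and adult enterocytes (AE) were the Epcam-high, CD31- and CD45- cells of villus suspensions. There were 3 libraries in each of the 4 groups, and they are named here by age, cell population and the code in the table's column headings, Y1, Y2 and Y3 for young and O1, O3 and O5 for aged. All mice carried the same reporter, so no group lacked it.

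Paneth cells sit between the stem cells at the base of the small intestinal crypt and release granules of antimicrobial proteins into the crypt lumen. Alpha-defensins are short peptides that disrupt microbial membranes, and in the mouse they are made as inactive precursors that the matrix metalloproteinase Mmp7 cuts inside the granules. Lysozyme breaks bacterial cell walls, angiogenin 4 is a microbicidal ribonuclease and intelectin 1 binds sugars on microbial surfaces. Wnt signals, acting through beta-catenin and TCF factors, are known to switch on defensin genes and to position Paneth cells at the crypt base. Neither sort was designed to collect Paneth cells, and which cells of the ISC and AE preparations carried the RNA counted here was not tested.

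The 4 defensins lie within 1 stretch of mouse chromosome 8 (build GRCm38, plus strand), Defa30 at chr8:21134642-21135598, Defa22 at chr8:21162277-21163249, Defa17 at chr8:21655780-21656735 and Defa24 at chr8:21734494-21735471, each with 2 exons. Their coding sequences (282 bases with the stop codon, intron removed, GENCODE release M21) are shown because reads of 50 bases have to be told apart within them. Capitals mark bases that differ from Defa24 at the same position.
Defa24: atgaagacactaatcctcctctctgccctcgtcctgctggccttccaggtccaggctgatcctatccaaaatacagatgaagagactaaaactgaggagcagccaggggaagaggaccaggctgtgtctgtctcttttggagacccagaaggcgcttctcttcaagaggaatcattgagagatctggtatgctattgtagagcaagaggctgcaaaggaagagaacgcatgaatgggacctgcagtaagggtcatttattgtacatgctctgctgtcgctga
Defa30: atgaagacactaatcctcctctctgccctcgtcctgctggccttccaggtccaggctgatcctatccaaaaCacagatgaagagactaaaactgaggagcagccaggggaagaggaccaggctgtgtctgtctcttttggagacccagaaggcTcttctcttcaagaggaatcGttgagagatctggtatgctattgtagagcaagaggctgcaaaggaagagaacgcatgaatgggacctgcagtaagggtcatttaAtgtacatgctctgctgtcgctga
Defa17: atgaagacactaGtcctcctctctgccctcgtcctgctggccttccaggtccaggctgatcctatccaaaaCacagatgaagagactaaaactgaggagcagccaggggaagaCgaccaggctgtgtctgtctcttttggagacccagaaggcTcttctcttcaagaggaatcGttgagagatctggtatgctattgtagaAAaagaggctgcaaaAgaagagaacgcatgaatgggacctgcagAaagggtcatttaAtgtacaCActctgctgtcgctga
Defa22: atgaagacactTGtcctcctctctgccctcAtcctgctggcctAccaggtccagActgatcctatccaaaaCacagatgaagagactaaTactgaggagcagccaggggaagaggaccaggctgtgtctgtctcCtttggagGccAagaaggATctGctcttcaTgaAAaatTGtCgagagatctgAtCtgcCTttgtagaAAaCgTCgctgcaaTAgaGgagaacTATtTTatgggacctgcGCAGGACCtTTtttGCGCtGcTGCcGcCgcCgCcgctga
Defa30 differed from Defa24 at 4 of 282 bases (98.6% identity), Defa17 at 12 (95.7%) and Defa22 at 58 (79.4%), and 38 of those 58 stood in the last 94 bases, the part that encodes most of the mature peptide. Closer relatives lay outside the chosen genes. The coding sequence of Defa17 was identical to that of Defa3, and Defa22 differed from Defa21 at 2 of 282 bases.

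Every 50-base window of each gene's transcripts was compared with the transcripts of all other annotated genes, on both strands, to see how much of a gene a single read could assign. Defa24 had 71.9% of its windows to itself, Defa30 47.6%, Defa22 25.1% and Defa17 8.05%, and all 28 of the windows that were particular to Defa17 lay past its stop codon. The other members were better separated, with 83.9% for Lyz1, 84.6% for Lyz2, 95.3% for Ang4, 99% for Itln1 and 100% for Mmp7. Ang4 lies at chr14:51763878-51773590 and Itln1 at chr1:171518122-171535294, both on the minus strand. Mmp7 (chr9:7692090-7699585, plus strand) overlaps a gene on the other strand, AV064505, and whether counting used strand is not given in the sources used here. Of the 22 rows whose symbol starts with Defa, 8 had no count in any library, and 5 of these 8 had no window of their own. Defa31 went the other way: it had no window of its own, all 328 being found in other genes, yet it had 84 to 498 counts in the ISC libraries, while Defa23, which holds all of those windows, had 0 to 1. The values of Defa17, Defa22 and Defa30 are therefore counts of the rows with those names, and a sum over all Defa rows is given beside them.

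**Figure D1:**
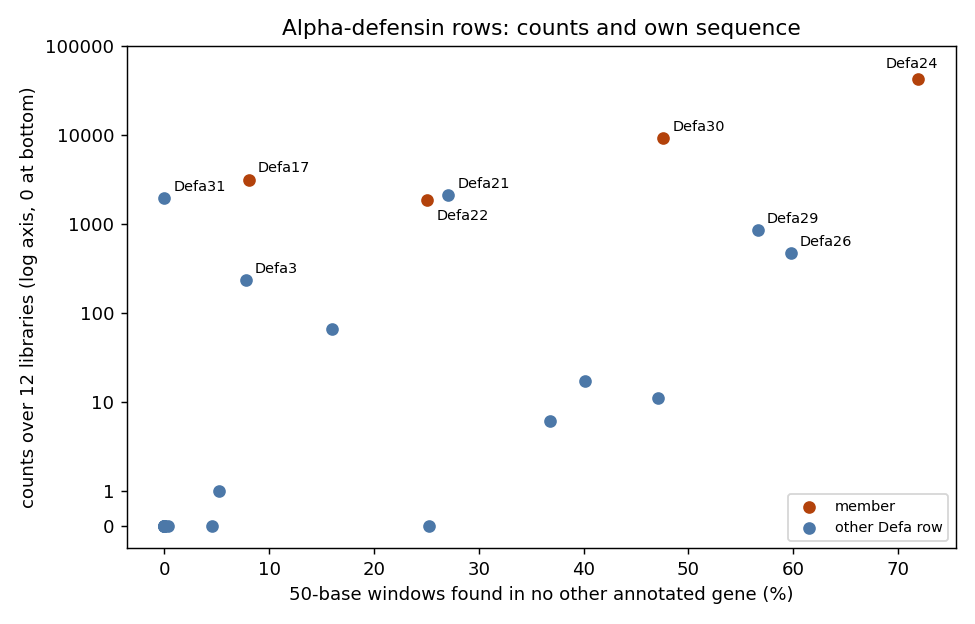
Counts of each of the 22 Defa rows summed over 12 libraries (vertical, log axis with 0 placed at the bottom) against the percentage of its 50-base windows found in no other annotated gene (horizontal), members in brown and other rows in blue. Defa24 is highest on both axes with 42611 counts and 71.9%, while Defa31 stands at 1927 counts with 0%.

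The bases before the transcription starts were read as well (RefSeq promoter table, GRCm38.p6), and 7 of the 9 genes had an entry, Defa17 and Defa24 being the others. The letters CTTTGA, or TCAAAG on the other strand, a core that TCF and LEF factors are known to bind, were searched from 250 bases before to 50 bases after the start. They occurred in 13 of 16 promoters of Defa symbols (81.2%), against 5257 of all 32851 promoters (16%). These 16 symbols are not the same set as the 22 Defa rows of the counts, and some with the motif had no count in any library. Several of the Defa promoters are copies of each other, those of Defa21 and Defa22 being identical over all 300 bases. The 16 are therefore not independent cases, and the 2 shares were not tested against each other. The 150 bases before the start of Defa22 (chr8:21162127-21162276) and Defa30 (chr8:21134500-21134649), plus strand, are shown with this motif in capitals.
Defa22 upstream: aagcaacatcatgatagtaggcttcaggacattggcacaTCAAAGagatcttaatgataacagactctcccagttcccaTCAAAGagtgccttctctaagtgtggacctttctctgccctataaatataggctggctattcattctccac
Defa30 upstream: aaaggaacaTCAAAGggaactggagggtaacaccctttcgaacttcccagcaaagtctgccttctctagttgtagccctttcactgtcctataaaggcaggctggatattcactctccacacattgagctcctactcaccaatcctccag
The motif stood 111 and 71 bases before the Defa22 start and 141 bases before that of Defa30. The 2 promoter entries of Mmp7 overlap, and both held the motif at the same single genomic site. That site lay just after the start of 1 entry and within the 250 bases before the start of the other. It was outside the 150 bases before either start. These letters were absent from the windows of Lyz1, Lyz2, Ang4 and Itln1. The 2 lysozyme genes are neighbours on the minus strand of chromosome 10, Lyz2 at chr10:117277331-117282321 and Lyz1 at chr10:117287797-117292868. Their coding sequences were 95.1% identical (22 differences in 447 bases), and their upstream sequences also remained alike. Of the 150 bases before the RefSeq start, 21 differed (86% identity without gaps). The first 101 of them are set out 5′ to 3′ on the minus strand for Lyz1 (chr10:117292918-117293018) and Lyz2 (chr10:117282322-117282422), with capitals at the bases that differ, since the levels of this pair lay far apart.
Lyz1 upstream: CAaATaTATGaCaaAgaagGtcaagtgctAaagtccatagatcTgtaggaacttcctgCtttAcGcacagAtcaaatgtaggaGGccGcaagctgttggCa
Lyz2 upstream: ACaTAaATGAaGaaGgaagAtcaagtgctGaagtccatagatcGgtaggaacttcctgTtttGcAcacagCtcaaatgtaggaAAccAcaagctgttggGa
The other 49 bases, which follow at the 3′ end, were the same in both genes. In Lyz2 these 49 lie inside the annotated transcript, which reaches chr10:117282321. All 21 differences thus stand in the 101 bases shown.

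Library totals ran from 11893817 to 26796461 counts, apart from 1 young AE library, Y3, with 110794420. Values are given as counts per 1000000 counts of the library (CPM) after TMM scaling, which evens out differences in composition, and each group mean carries its SD over n = 3. The stem cell markers (Lgr5, Olfm4 and 6 others) summed to 5503 to 7970 CPM in ISC and 113 to 612 in AE. The 10 enterocyte markers summed to 1522 to 8516 in ISC and 63007 to 100333 in AE. Each population was thus the higher of the 2 in the markers of its label. These sums do not measure purity. In young ISC library Y3 the enterocyte sum (8516 CPM) was above the stem cell sum (5739 CPM). Of 14 myeloid markers, summed at 14.8 to 38.3 CPM over all libraries, 3 never exceeded 3 counts, and 7 T cell and intraepithelial lymphocyte markers summed to 0.8 to 52.7 CPM. Replicates of a group differed well beyond sampling noise (chi-square per degree of freedom 29.0 to 240), so none was the same library sequenced again. This cannot tell separate animals from repeat preparations of 1 animal.

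Together the 9 genes made up 0.0745% to 0.228% of all counts in the ISC libraries and 0.00412% to 0.0197% in the AE libraries. Lyz1, Defa24 and Itln1 were the 3 members with the most CPM in 12 of 12 libraries and held 79.6% to 93.6% of the members' counts. Because the sorted populations are bulk samples, fewer Paneth cells and less RNA per Paneth cell cannot be told apart in any of these values.

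Among the defensins, Defa24 had the most counts. It also had the largest share of windows to itself (71.9%), so abundance and ease of read assignment cannot be told apart. Its ISC libraries had 422 (Y1), 356 (Y2) and 188 (Y3) CPM in young mice. In aged mice they had 290 (O1), 251 (O3) and 358 (O5). In AE the values were 26.4, 66.3 and 17.0 CPM in the young libraries and 21.3, 32.8 and 18.3 in the aged. All 6 ISC libraries were thus above all 6 AE libraries, and at neither site did young and aged separate. Per kilobase of exon, Defa24 was the highest member in all 12 libraries, with a mean of 768 CPM per kilobase in young and 716 in aged ISC.

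Defa30 followed at 86.9, 91.0 and 40.3 CPM in young and 78.8, 26.3 and 80.9 in aged ISC. Its AE values were 0.98, 12.2 and 1.78 in young mice and 3.62, 5.29 and 0.65 in aged mice. Y3 and O3 were the low libraries of the ISC groups, and Y2 was the high one of AE. Defa17 varied least of the defensins in ISC, at 31.9, 22.5 and 14.8 CPM in young and 27.2, 20.4 and 21.5 in aged mice. In AE it had 0.33, 5.54 and 0.74 CPM in young and 0.48, 1.34 and 0.11 in aged libraries, the last being a single count. The whole group of 22 Defa rows summed to 270 to 666 CPM in ISC and 19.9 to 91.2 in AE, and Defa24 alone held 68.1% of those counts.

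Defa22 was the most uneven member in ISC. It had 32.8, 18.2 and 5.56 CPM in young ISC libraries and 7.46, 2.48 and 25.5 in aged ones, a 13.2-fold span between the highest and lowest library, against 2.24-fold for Defa24 and 2.15-fold for Defa17. For each 100 Defa24 counts of the same library there were 0.987 (O3) to 7.78 (Y1) Defa22 counts. In AE, Defa22 was near the limit of detection, with 0, 6 and 22 counts in young and 1, 17 and 0 in aged libraries. A count of 0 in these libraries allows up to 0.246 CPM in young Y1 and 0.327 CPM in aged O5 (3 counts, counting error only).

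Among the other secreted proteins, Lyz1, the lysozyme of Paneth cells, had 793, 348 and 207 CPM in young and 213, 188 and 439 in aged ISC. In AE it had 14.6, 76.4 and 19.1 CPM in young and 9.99, 30.6 and 15.3 in aged libraries. Young Y1 was the highest ISC library and young Y2 the highest AE library. Lyz2, which macrophages are known to express, stood at 0.14 to 0.70 CPM in ISC and 0.09 to 0.44 in AE, from 1 to 37 counts, and was at or under 3 counts in 4 of 12 libraries. For each 1000 counts of Lyz1 there were 0.659 to 1.35 counts of Lyz2 in ISC, although the 2 genes are so alike in sequence. In AE there were 2.93 to 28.6, and whether any Lyz2 counts were reads of Lyz1 was not tested.

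Itln1 had 292, 165 and 111 CPM in young ISC, and the aged ISC libraries had 116, 148 and 164. The AE libraries held 28.3, 60.6 and 12.9 CPM in young and 18.1, 23.3 and 22.3 in aged mice. The aged values lay close together at both sites, with a coefficient of variation of 17.0% in ISC and 13.0% in AE. Ang4 had 40.9, 25.3 and 11.5 CPM in young and 11.5, 5.34 and 28.9 in aged ISC, and its AE libraries had 2.05, 4.05 and 1.57 in young and 0.86, 0.63 and 0.65 in aged mice. The aged AE values rest on 6 to 9 counts each.

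Mmp7, the convertase of the defensins, stood at 29.1, 26.9 and 11.96 CPM in young and 33.4, 22.8 and 20.9 in aged ISC. In AE it had 4.01, 13.8 and 0.74 CPM in young and 1.33, 2.96 and 2.07 in aged mice. Young AE library Y2 overlapped the ISC range, so that Mmp7 and Lyz2 were the 2 members without a gap between the cell populations. The other 7 members had every AE library below every ISC library, a pattern found in 25.2% of the 17377 genes tested across the 4 groups.

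**Figure D2:**
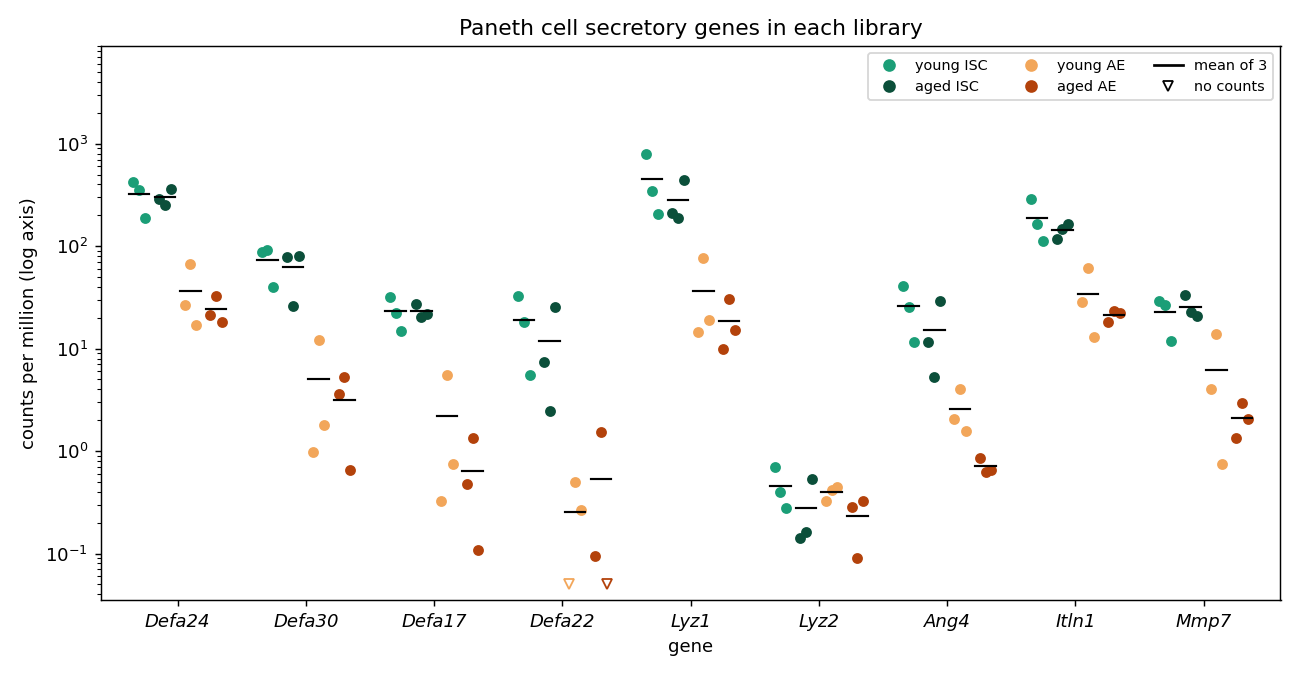
CPM (vertical, log axis) of the 9 genes (horizontal) in every library, 3 points a group, with the group mean as a bar and open triangles for libraries without a count. ISC points in green lie above AE points in orange and brown for 7 genes, while Mmp7 overlaps in young libraries and Lyz2 stays below 1 CPM in all 12.

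Ordered by level per kilobase of exon in young ISC, Defa24 (768 CPM per kilobase) was followed by Lyz1 (356), Defa30 (183), Itln1 (166), Defa17 (58.1), Defa22 (45.0), Ang4 (36.5), Mmp7 (21.2) and Lyz2 (0.349). The ranges of neighbours overlapped except between Itln1 and Defa17 and between Mmp7 and Lyz2. In aged ISC the order was the same but for Mmp7 (24.1) and Ang4 (21.5), whose ranges overlapped. In AE, Itln1 (29.7 in young, 18.6 in aged) stood next to Lyz1 (29.0 and 14.7) behind Defa24, again with overlapping ranges. Only unique alignments were counted, and these levels were divided by all exon bases. They were not corrected for windows shared with other genes, the row's own share being 8.05% for Defa17, 25.1% for Defa22 and 71.9% for Defa24. The part of this in the order was not tested.

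The comparison of AE with ISC asked how far the genes of a crypt base cell type differ between the 2 sorted populations. In young mice 7 of the 9 members were lower in AE, as were 4241 of 16681 genes tested (25.4%), and their folds ran from 5.62 for Itln1 to 72.2 for Defa22. In aged mice 8 of the 9 were lower, against 5407 of 15855 genes (34.1%), with folds from 7.08 for Itln1 to 35.6 for Defa17. The median log2 fold change of the members was -3.39 in young and -3.97 in aged mice, beside 0.15 and -0.13 over all genes tested. The tests were quasi-likelihood fits in edgeR of 3 libraries against 3, adjusted over all genes by the Benjamini-Hochberg method.

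Defa24 changed by -3.15 ± 0.54 (log2, SE) in young mice (edgeR, adjusted p = 0.00176) and by -3.70 ± 0.27 in aged mice (adjusted p = 2.28e-06). Defa30 changed by -3.93 ± 0.87 in young (edgeR, adjusted p = 0.00578) and -4.31 ± 0.60 in aged mice (adjusted p = 0.000141). Defa17, at -3.49 ± 0.87 in young and -5.15 ± 0.47 in aged mice, passed the test at both ages, and so did Defa22, at -6.17 ± 0.87 and -4.41 ± 1.07. The sum of all Defa rows, which leaves out the related gene models of the locus and any read that could not be placed in 1 gene, changed by -3.41 ± 0.61 in young (edgeR, adjusted p = 0.00223) and -3.92 ± 0.35 in aged mice (adjusted p = 7.03e-06), that is 10.6-fold and 15.1-fold lower in AE.

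Lyz1 was 12.3-fold lower in AE of young mice (edgeR, adjusted p = 0.00443) and 15.7-fold lower in those of aged mice (adjusted p = 5.11e-05). Ang4 was 10.5-fold lower in young (edgeR, adjusted p = 0.00129) and 22.2-fold lower in aged mice (adjusted p = 0.000192). Itln1 had the smallest change of the members that passed, 5.62-fold in young (edgeR, adjusted p = 0.00692) and 7.08-fold in aged mice (adjusted p = 1.67e-06).

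Mmp7 was 12.6-fold lower in aged AE (edgeR, adjusted p = 6.39e-06). In young mice its log2 change of -1.93 (95% confidence interval -3.92 to 0.070) did not pass (edgeR, adjusted p = 0.0939). With the library code as a replicate block, which compares AE with ISC of the same code, the young change was -2.58 and passed (edgeR, adjusted p = 0.00386). It was -3.57 without the young AE library Y2 (edgeR, adjusted p = 0.00335). Lyz2 did not pass at either age, with log2 changes of -0.19 (-1.71 to 1.33) and -0.32 (-2.41 to 1.76), intervals that cannot resolve a difference at these few counts.

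**Figure D3:**
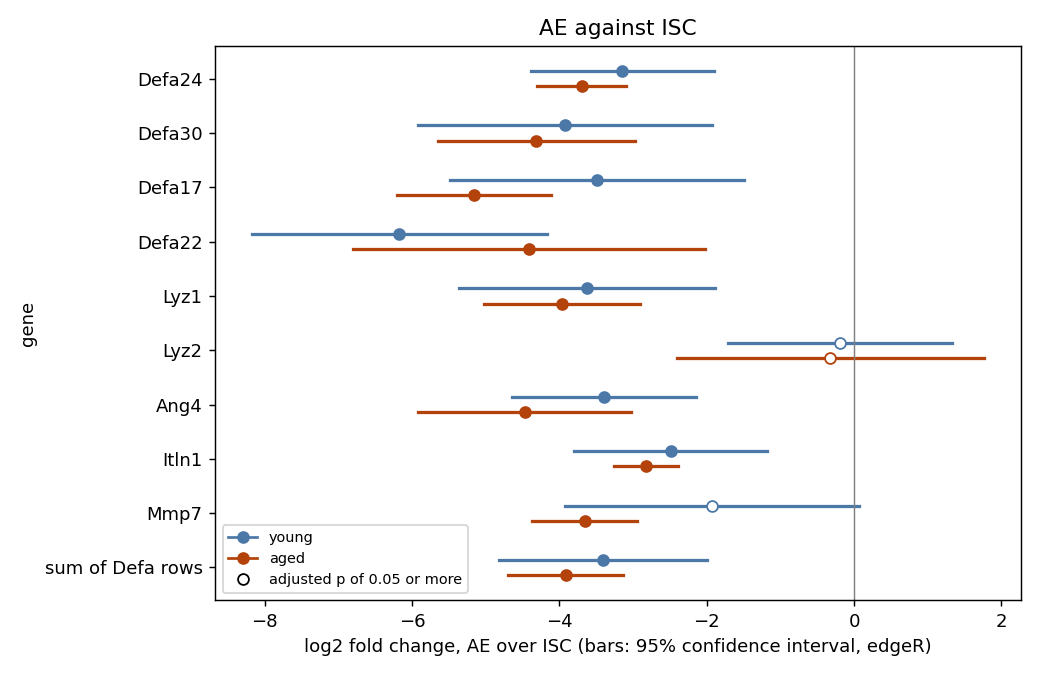
Log2 fold change of AE over ISC (horizontal) for each gene and for the sum of the Defa rows (vertical), young in blue and aged in brown, with 95% confidence intervals and filled points where the adjusted p was under 0.05. All points lie left of 0, and those of Lyz2 and of Mmp7 in young mice are open.

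Single libraries moved several of these folds, although the 7 genes in young and 8 in aged mice kept an adjusted p under 0.05 (edgeR) whichever library was left out. The young AE library Y2 had the most CPM of the 6 AE libraries for 7 of the 9 members, with a members' sum of 240 CPM against 54.6 to 98.5 in the others. Without it the young folds were 16.1 for Defa24, 51.2 for Defa30, 39.1 for Defa17, 28.3 for Lyz1 and 10.04 for Itln1, and 21.8 for the sum of Defa rows. The summed stem cell markers were also highest in that library, at 612 CPM against 113 to 217 in the other AE libraries, and their part in the result was not tested. Without the young ISC library Y1 the folds of Lyz1 and Defa22 were 7.62 and 45.7. In aged mice, leaving out the AE library O3 gave 218-fold for Defa22, 79.0 for Defa17, 29.9 for Defa30 and 23.5 for Lyz1, and leaving out the ISC library O5 gave 9.27 for Defa22 and 12.5 for Ang4.

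The study's central comparison was aged with young mice within a cell population, and with DESeq2 it reported genes changed with age in both populations. The tests given here are those of edgeR unless DESeq2 is named. In ISC no member passed, with adjusted p of 1.00 for each, as no gene of 15552 did (0%). At an unadjusted p under 0.05 there were 695 genes, and DESeq2 called 58, none of them a member. The log2 changes ran from -0.75 for Ang4 (95% confidence interval -2.11 to 0.61) to 0.20 for Mmp7 (-0.54 to 0.93). The shortest intervals were those of Defa17 at 0.011 (-0.59 to 0.61) and Defa24 at -0.093 (-0.74 to 0.55), and the sum of Defa rows was at -0.18 (-0.93 to 0.56). For Lyz1 the interval was -1.78 to 0.44 around -0.67, which leaves room for a sizeable fall. No member had all aged libraries below all young ones, a pattern held by 4.44% of genes. Without the young library Y1 the change of Lyz1 was 0.016 and that of Itln1 0.053.

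In AE the members were again not called, as no gene of 16265 was (0%), while 809 genes had an unadjusted p under 0.05 and DESeq2 called 18, no member included. Ang4 came closest, at 0.713 ± 0.125 CPM (SD, n = 3) in aged and 2.56 ± 1.32 in young AE, a log2 change of -1.80 (95% confidence interval -3.01 to -0.58, edgeR, unadjusted p = 0.00869, adjusted p = 0.833). Its 3 aged AE libraries all lay below the 3 young ones, which held for 6.93% of genes tested and also for Lyz2, at 1 to 3 counts in each aged library. With any 1 of the 6 libraries left out the change of Ang4 was between -2.06 and -1.29. Mmp7 and Defa17 had changes of -1.495 (-3.50 to 0.50) and -1.69 (-4.21 to 0.84), Lyz1 of -0.96, Itln1 of -0.65, Defa30 of -0.60 and Defa24 of -0.57. These were values with the young library Y2 included. Without it Mmp7 was at -0.044, Defa17 at 0.23, Lyz1 at 0.17, Itln1 at 0.087, Defa30 at 1.18 and Defa24 at 0.19. Defa22 had a change of 1.12 (-2.03 to 4.27), and of -2.23 without aged O3.

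Whether age acted differently in AE and ISC was tested as the difference of the age effects, over 12 libraries. No member passed (edgeR, adjusted p = 1.00 for each), and 1 gene of 17377 did (0.00575%). The difference was -1.65 (95% confidence interval -3.90 to 0.59) for Mmp7, -1.01 (-3.02 to 1.01) for Ang4 and -0.44 (-1.98 to 1.09) for the sum of Defa rows. Single libraries carried much of these values, as Mmp7 was at -0.10 without the young AE library Y2, Ang4 at -0.16 without the aged ISC library O5 and the sum of Defa rows at 0.48 without Y2 of AE. With the replicate block 21 genes passed, again without a member.

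**Figure D4:**
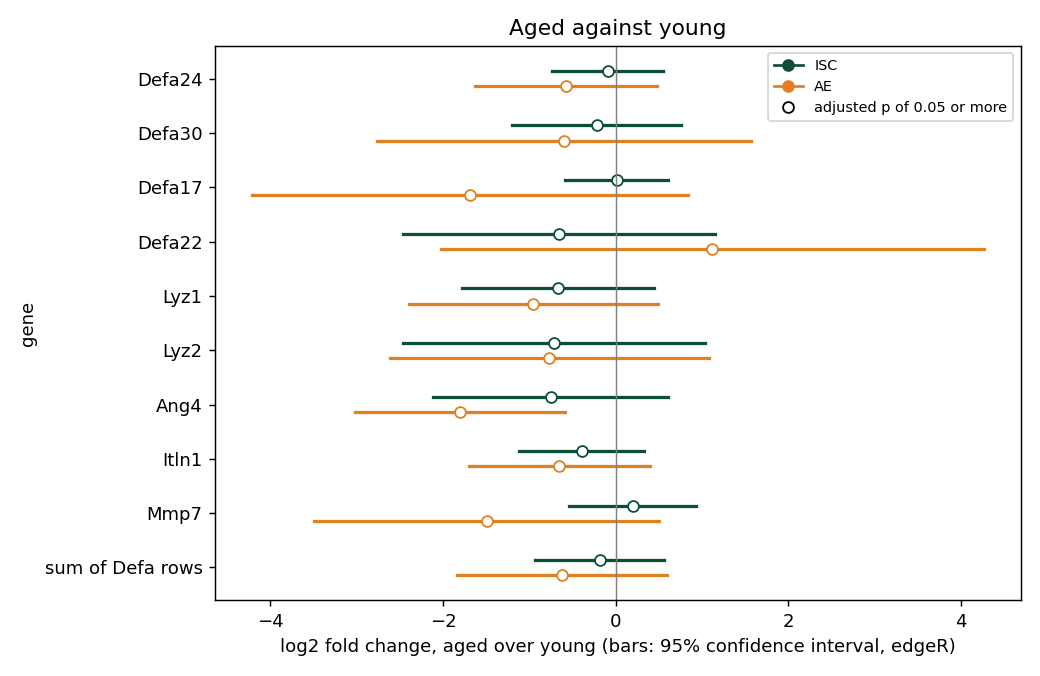
Log2 fold change of aged over young (horizontal) for each gene and the sum of the Defa rows (vertical), ISC in green and AE in orange, with 95% confidence intervals and open points for an adjusted p of 0.05 or more. Every point is open, and the ISC intervals of Defa24 and Defa17 are the shortest while the AE interval of Defa22 is the longest.

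The spread among ISC libraries was shared by some members more than others. Young Y1 was the highest ISC library for 7 of the 9 members, and young Y3 and aged O3 were each the lowest for 4. Defa22 and Ang4 ran closest together, with r = 0.99 in log2 CPM over the 6 ISC libraries, and Lyz1 followed them (r = 0.91 and 0.92). Mmp7 ran with Defa17 (r = 0.91) and less with Lyz1 (r = 0.33) or Ang4 (r = 0.25). Over the 28 pairs without Lyz2 the median r was 0.71 in ISC and 0.65 in AE, and 0.93 over all 12 libraries, where the points share the difference between AE and ISC. These correlations describe 6 or 12 libraries that share depth and scaling, with no test. Beside them, the enterocyte marker sums of Y3 and O3 were the 2 highest of ISC, at 8516 and 4699 CPM against 1522 to 3644 in the others, and their part was not tested.

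**Figure D5:**
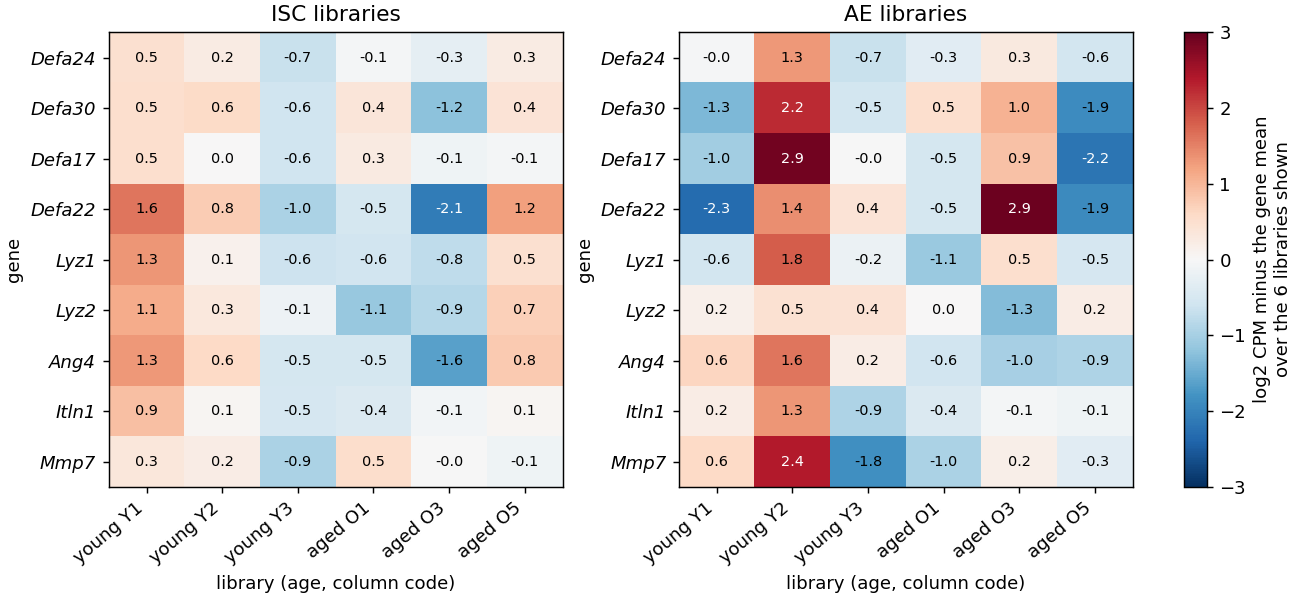
Log2 CPM of each gene (vertical) minus its mean over the 6 ISC libraries (left) or 6 AE libraries (right), with the value in each cell and the libraries (age and column code) along the horizontal axis. Red marks values above the mean, as in young Y2 of AE, and blue values below it, as for Defa22 and Ang4 in aged O3 of ISC.

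Other alpha-defensin rows had the same direction as the members. Of 18 Defa rows that are not members, 6 could be tested in young mice and 7 in aged mice, and 6 were lower in AE at each age. Over all genes tested, 25.4% were lower in young AE and 34.1% in aged AE. Some rows reached the filter through ISC alone, as Defa3 did in aged mice with 0 counts in each AE library, and could only be called lower. Many also share sequence with members, so they are not separate support. Without the young ISC library Y1 the young count was 3, as Defa3, Defa31 and Defa34 no longer passed (edgeR, adjusted p = 0.0528, 0.0666 and 0.111). The young call of Defa34 was lost with any 1 of 5 libraries left out (Y1 or Y2 of ISC or Y1, Y2 or Y3 of AE). It was also lost with the replicate block (edgeR, adjusted p = 0.153), where the young count was 5. The highest of these, Defa21, had 1.24 to 40.02 CPM in ISC and changed by -5.88 in young (edgeR, adjusted p = 0.00198) and -5.01 in aged mice (adjusted p = 0.00423). A further 6 defensin-related gene models at the locus had 4 rows tested in young and 3 in aged mice, of which 3 were lower at each age. These gene model counts are to be read beside the same shares. The most abundant, AY761184, was at 40.4 to 150 CPM in ISC and 0.44 to 13.2 in AE, Gm14851 at 6.85 to 64.8 and 0.11 to 5.71, and Gm15292 at 0.05 to 3.00 and 0 to 0.17. None passed the test of age in ISC (edgeR, adjusted p = 1.00).

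Other products listed for Paneth cells were mixed. Of 8 rows on the list 6 were tested, of which 1 was lower and 3 were higher in AE of young mice and 2 were lower and 3 higher in aged mice. Over all genes tested, 25.4% were lower and 27.7% higher in young AE, and 34.1% lower and 30% higher in aged AE. Mptx2, a pentraxin, was 1.40 to 32.5 CPM in ISC and 0 to 2.65 in AE, lower in AE by -4.47 in young (edgeR, adjusted p = 0.0143) and -5.59 in aged mice (adjusted p = 0.00112), and Habp2 was lower in AE of aged mice (-1.68, edgeR, adjusted p = 0.00197) while its value in young mice, 0.15, did not pass. Without the young ISC library Y1, Mptx2 was at -3.83 in young mice and did not pass (edgeR, adjusted p = 0.0593). Reg3a, a lectin that enterocytes also make, rose instead, from 7.57 to 117 CPM in ISC to 247 to 719 in AE (3.04 in young, edgeR, adjusted p = 0.00985, and 3.91 in aged mice, adjusted p = 0.000525). Clps, or colipase, was also higher in AE, by 1.78 (edgeR, adjusted p = 0.0306) and 2.00 (adjusted p = 0.00334), as was Nupr1 by 1.37 and 1.90. The young calls of Clps and Nupr1 were each lost with any of 4 libraries left out (Clps without Y2 or Y3 of ISC or Y1 or Y3 of AE, Nupr1 without Y2 or Y3 of ISC or Y1 or Y2 of AE), at adjusted p of up to 0.10 and 0.0736 (edgeR). Pnliprp2, a lipase, did not pass, at -0.48 and -0.25.

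Genes that direct Paneth cell fate were likewise mixed. Of 9 regulators, 2 were lower and 3 higher in AE of young mice, and 4 lower and 4 higher in AE of aged mice, beside the shares of all genes just given. Without the young AE library Y2 the young lower count was 4, with Bhlha15 and Nod2 added. Sox9, a transcription factor needed for Paneth cells and also active in stem cells, was lower by -2.80 in young (edgeR, adjusted p = 0.000933) and -3.28 in aged mice (adjusted p = 4.70e-07), and Ephb3, a receptor that keeps cells at the crypt base, by -4.35 (adjusted p = 0.000276) and -5.31 (adjusted p = 3.24e-07). Xbp1, which secretory cells need to build their granules, was at 109 to 152 CPM in ISC and 195 to 306 in AE, higher by 0.94 in young (edgeR, adjusted p = 0.00366) and 0.97 in aged mice (adjusted p = 0.00152). Atoh1 and Spdef, which goblet cells share, were also higher in AE, Atoh1 by 2.29 in young (edgeR, adjusted p = 0.000806) and 1.90 in aged mice (adjusted p = 0.000177). Fzd5, the Wnt receptor of Paneth cells, was at 162 to 244 CPM in ISC and 149 to 206 in AE and did not pass (-0.023 and -0.11). Of 6 niche ligands and surface genes, 3 were higher in young AE and none lower, and 2 were higher and 1 lower (Egf, -2.68) in aged AE, counts to be read beside the same shares. Cd24a, the most abundant of them, did not pass at either age (-0.13 and -0.50), but in aged mice it was lower in AE with the replicate block (-0.49, edgeR, adjusted p = 0.0143) and without the ISC library O5 (-0.65, adjusted p = 0.0147), which made the lower count 2. The young call of Wnt3 (1.23) was lost without Y1, Y2 or Y3 of ISC or Y1 of AE, and the aged call of Dll4 (0.57) without O3 or O5 of ISC or O1 or O3 of AE, with adjusted p of up to 0.126 and 0.0908 (edgeR). Dll1 did not pass at either age (0.27 and -0.11), while Tgfa, a growth factor for neighbouring cells, was higher by 1.15 (edgeR, adjusted p = 0.00092) and 1.33 (adjusted p = 8.98e-05). In neither ISC nor AE was a gene of these lists called with age (edgeR).

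Markers of other cells were counted in the same comparisons. Their counts are to be read beside the shares over all genes tested. These were 25.4% lower and 27.7% higher in young AE, and 34.1% lower and 30% higher in aged AE. All 8 stem cell markers were lower in AE at both ages, among them Olfm4 (3460 to 5446 CPM in ISC, 23.1 to 338 in AE) and Slc12a2 (1038 to 1458, 18.8 to 118), and all 10 enterocyte markers were higher, among them Apoa1 and Apoa4 (Fabp1 did not pass in young mice without Y1 or Y2 of ISC or Y3 of AE). Of 6 goblet markers 5 were higher in AE at both ages, with Fcgbp and Zg16 the most abundant. The other, Spink4, was at 0.77 in young mice, which did not pass, and was lower in aged AE (-1.02, edgeR, adjusted p = 0.018), a call lost without O1 or O3 of ISC or O1 of AE (adjusted p of up to 0.0632). The sum of the 6 went from 1379 to 2226 CPM in ISC to 28042 to 56919 in AE. Of 8 enteroendocrine and tuft markers 4 were higher at both ages, among them Chgb and Chga, and Gcg was lower in aged AE (-1.55, edgeR, adjusted p = 0.000231). Without the young AE library Y3 the young higher count was 7. Of the 7 lymphocyte markers 1 was higher in young AE (Ptprc; 5 with the replicate block) and all 7 in aged AE, Gzma included, and in ISC their sum was 7.3 to 20.01 CPM in young and 0.8 to 2.7 in aged libraries, though none passed the test of age (edgeR). Of myeloid markers tested, 4 were higher and 1 lower of 9 in young AE, and 1 higher and 2 lower of 5 in aged AE, with Cd14 lower at both ages. The young higher count was 2 with the replicate block and 1 to 4 with a library left out, and Itgam, higher in young AE (0.77), lost its call with any 1 of Y1, Y2 and Y3 of ISC and Y2 and Y3 of AE left out. The part of any of these in the members' values was not tested.

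The genes whose profile over the 12 libraries was most like the mean profile of the 9 members, among 13997 others with at least 100 counts, were AY761184 (r = 0.990), Nup214 (0.990), Acly (0.987), Hspg2 (0.987) and Tfrc (0.985), by Pearson's correlation of log2 CPM. AY761184 is itself a gene model of the defensin locus. Nup214, a nuclear pore protein, was at 41.8 to 60.0 CPM in ISC and 21.4 to 31.1 in AE, and Tfrc, the transferrin receptor, at 333 to 505 and 86.7 to 254. In both genes every ISC library was above every AE library, as in 25.2% of the 17377 genes tested across the 4 groups. Both were picked for likeness to a profile that differs between AE and ISC, so this gap is not a separate result.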

How the data were processed

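Poly(A)+ RNA of sorted ISC and AE was sequenced as single reads of 50 bases. The authors trimmed reads with Trim Galore (0.4.4), aligned them to GRCm38 with HISAT2 (2.1.0), kept unique alignments and counted merged transcripts over exons in SeqMonk (1.42.0). The deposited table holds raw read counts per gene, and these were used here. A further table of the authors, holding normalized values and fold changes of their called genes, was not used.

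Columns were assigned to groups by the age and cell population in their names. Sample titles and column codes number the replicates differently in 8 of 12 cases, so no column was tied to a single title. The sources list 3 ages for each cohort and do not tie libraries to animals, so p-values measure the spread between these libraries. Rows reaching 10 counts in total over the libraries of a comparison were fitted in edgeR (4.0.16, R 4.3.3) with TMM factors and the quasi-likelihood test, at a Benjamini-Hochberg adjusted p under 0.05. Fits were tested on simulated data. Libraries of 1 code deviated together (r = 0.162 to 0.364 over 6 pairs, against -0.275 to 0.0688 for other pairs), so a replicate block was fitted as an alternative, beside DESeq2 (1.42.0), RLE factors, no filter, all 4 groups in 1 fit, and each library left out. Confidence intervals cover 95%. Floors from counts of 0 cover counting error only.

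The members and gene lists were chosen with earlier results of these data known. Named genes are the 9 members, the 3 rows of highest mean CPM in each Paneth list, the 2 of highest mean CPM in the other lists and the 5 genes most like the members. Defa3, Defa21, Defa23, Defa31, Defa34, Mptx2, Habp2, Nupr1, Ephb3, Atoh1, Spdef, Bhlha15, Nod2, Egf, Wnt3, Dll4, Spink4, Gcg and Fabp1 were named after their values were seen. Muc2, on 5 rows, was left out of the goblet list. Coordinates are from GENCODE M21, and windows were not compared with the rest of the genome.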

Additional observations from a re-analysis of the deposited data

How the results depend on the processing

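The AE against ISC differences of the 7 members called in young mice and 8 in aged mice, and of the sum of Defa rows, kept their direction and an adjusted p under 0.05 under DESeq2, RLE factors, no filter, all 4 groups in 1 fit, the replicate block and each library left out. The replicate block, which pairs libraries of 1 code, changed 1 call among the members, that of Mmp7 in young mice (-2.58), which also passed with all 4 groups in 1 fit (-1.94). It moved the count of genes called for the difference of age effects (21 against 1). In AE against ISC of young mice, the regulators moved to 3 against 2 lower and 4 against 3 higher. The Defa rows that are not members moved to 5 against 6 lower. Lymphocyte and myeloid markers higher in young mice moved as well (5 against 1 and 2 against 4). In aged mice the niche genes lower in AE moved (2 against 1). So did the enteroendocrine and tuft markers (5 against 4) and myeloid markers (2 against 1) higher in aged AE. Counts of genes called with age were 58 in ISC and 18 in AE under DESeq2, 1 and 2 with no filter, and 1 in ISC with all 4 groups in 1 fit, against 0, and with each library left out they ranged from 0 to 1 in both. For the difference of age effects DESeq2 called 43 genes, and with each library left out the count ranged from 0 to 3. No member was called in any of these fits of age; the cause of the differences between tools was not tested.

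Log2 values that changed sign when a library was left out, none of them past the test, ranged as follows. For AE against ISC these were, in young mice, Lyz2 (-0.45 to 0.23), and in aged mice, Lyz2 (-0.67 to 0.52). For age in ISC they were Lyz1 (-1.15 to 0.016), Mmp7 (-0.11 to 0.41), Defa17 (-0.23 to 0.31), Defa24 (-0.36 to 0.15), Defa30 (-0.51 to 0.14), Itln1 (-0.66 to 0.053) and the sum of Defa rows (-0.48 to 0.088). For age in AE they were Lyz1 (-1.53 to 0.17), Defa17 (-2.82 to 0.23), Defa22 (-2.23 to 1.68), Defa24 (-0.92 to 0.19), Defa30 (-1.19 to 1.18), Itln1 (-1.05 to 0.087) and the sum of Defa rows (-1.02 to 0.32). For the difference of age effects they were Lyz1 (-0.98 to 0.79), Lyz2 (-0.49 to 0.79), Defa17 (-2.80 to 0.045), Defa22 (-1.63 to 3.03), Defa24 (-0.88 to 0.26), Defa30 (-0.98 to 1.29), Itln1 (-0.71 to 0.46) and the sum of Defa rows (-0.91 to 0.48). Beside these, Defa17 was at -0.00582 for age in ISC with all 4 groups in 1 fit, and Defa30 at 0.17 for the difference of age effects with the replicate block. Depth limits Lyz2 in all groups and Defa22, Defa17, Defa30 and Ang4 in AE, where single libraries held 0 to 9 counts (for Defa30, 6 in aged O5).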
